A study of Mus musculus with 24 samples.

Results

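The comparison of 6 tumours given BMS754807 and hydroxychloroquine together (the combination) with 6 tumours given hydroxychloroquine alone covered 12 of the 24 samples of the study, and every measured gene was a member. It asks what BMS754807, a small-molecule inhibitor of the receptors for insulin-like growth factor 1 and insulin, added in tumours that also received hydroxychloroquine. The groups were taken from the sample titles. The study concerns mouse pancreatic ductal adenocarcinoma and measured RNA from whole tumour tissue on Clariom S arrays, with 6 samples each for the combination, hydroxychloroquine alone, BMS754807 alone and a control given the vector. Both groups compared here thus shared hydroxychloroquine and differed by BMS754807. The labels do not state the mouse strain, the tumour model and its site, the doses or the treatment times. Nor do the labels say that the 6 samples of a group were different animals, and an error or p then measures only how far these samples spread.

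The receptors for insulin-like growth factor 1 (Igf1r) and for insulin (Insr) are tyrosine kinases that pass signals through insulin receptor substrates to the PI3K-AKT-MTOR and ERK pathways, which drive growth and restrain autophagy. Autophagy delivers cell contents to lysosomes for breakdown, and pancreatic tumour cells are known to rely on it. Hydroxychloroquine raises lysosomal pH and blocks that last step. RNA levels do not report the kinase activity of a receptor or the flux through autophagy.

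A few tumours stood apart in marker genes of several tissues. A list score is the mean, over the genes of a list, of how far a tumour's log2 level lies from the mean of that gene in all 24 tumours. Skeletal muscle genes scored 4.90 in combination tumour 1 and 6.20 in hydroxychloroquine tumour 5, while the other tumours of the 2 groups lay at or below 0.55. B and plasma cell genes scored 1.61 in combination tumour 4 and 3.11 in hydroxychloroquine tumour 1, which also had the highest T cell score of these 12 tumours (1.98). Hydroxychloroquine tumour 4 had the highest fibroblast (1.23) and macrophage (0.94) scores of the 12. In bulk tissue, fewer cells of a type and less RNA per cell cannot be told apart. As a check of the tissue label, the ductal keratin Krt7 had a median of 17.01 log2 in combination tumours and 16.79 log2 in hydroxychloroquine tumours, in a table whose values ended at 19. Array medians ran from 6.79 to 6.96 in the combination and from 6.90 to 6.98 in hydroxychloroquine alone, and the SD over genes from 3.97 to 3.99 in the combination and from 3.90 to 3.98 in hydroxychloroquine alone.

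No single gene separated the combination from hydroxychloroquine alone by the test used. In limma, 0 of 19505 genes passed an adjusted p under 0.05 (0% of genes, smallest adjusted p = 0.769). At an unadjusted p under 0.05, 546 genes lay higher in the combination (2.80% of all genes) and 506 lower (2.59%). All 6 combination tumours lay above all 6 hydroxychloroquine tumours for 30 genes (0.154%), and all 6 lay below for 22 genes (0.113%). The median difference over all genes was 0.0083 log2, 51.8% of genes lay higher in the combination, and 60 genes (0.308%) differed by more than 1 log2 unit. Brighter genes leaned further to the higher side. Of the 9752 genes with a mean level above that of the median gene, 62.8% lay higher, with a median difference of 0.048 log2. The median standard error of a difference was 0.186 log2. All differences below are combination minus hydroxychloroquine on the log2 scale, with the standard error (n = 6 per group), and none of them passed the adjusted test.

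The smallest p among genes higher in the combination belonged to Spidr, a scaffold of DNA repair by homologous recombination, and the next to Mms22l, which helps stalled replication forks to recover. Spidr had a lowest, median and highest level of 9.87, 10 and 10.26 log2 in combination tumours, against 9.25, 9.56 and 9.62 in hydroxychloroquine tumours. The groups did not overlap, and the difference was 0.52 ± 0.11, or 1.44-fold (unadjusted p = 6.47e-05, adjusted p = 0.769 in limma). Mms22l stood at 9.60, 10.14 and 10.38 in combination tumours, against 9.20, 9.37 and 9.85 in hydroxychloroquine tumours. Of the 6 combination tumours, 5 lay above every hydroxychloroquine tumour (0.64 ± 0.14).

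Pold1, the catalytic subunit of DNA polymerase delta, stood at 8.07, 8.59 and 8.71 in combination tumours, against 7.48, 7.58 and 8.23 in hydroxychloroquine tumours. Again 5 of 6 combination tumours lay above the highest hydroxychloroquine tumour, and the difference was 0.74 ± 0.20, or 1.67-fold (adjusted p = 0.769). Pms2, of DNA mismatch repair, lay between 11.86 and 12.26 in combination tumours and between 11.34 and 11.85 in hydroxychloroquine tumours, without overlap (0.41 ± 0.11). Aspm, a protein of mitotic spindle poles, ran from 9.89 to 10.45 in combination tumours and from 9.38 to 10.27 in hydroxychloroquine tumours. Its groups overlapped through hydroxychloroquine tumour 2 at 10.27, while the other hydroxychloroquine tumours reached 9.70 at most (0.63 ± 0.17).

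The other leading genes on the higher side had varied roles. Bco1, which cleaves beta-carotene, ran from 4.23 to 5.42 in combination tumours and from 3.87 to 4.22 in hydroxychloroquine tumours (0.91 ± 0.21). Lama5, a laminin chain of basement membranes, ran from 11.30 to 11.82 in combination tumours and from 10.71 to 11.16 in hydroxychloroquine tumours (0.53 ± 0.14). Neither gene overlapped between groups, and the same held for Mocos, which activates molybdenum enzymes (0.56 ± 0.15), and Pbp2 (0.73 ± 0.19). Zfp551, a zinc finger gene (0.81 ± 0.21), Pik3c2b, a class II phosphoinositide kinase (0.53 ± 0.14), and Fbxo48, an F-box gene (0.87 ± 0.24), overlapped between groups. Of these 12 genes with the smallest p on the higher side, 5 had a mean below that of the median gene (7.21 log2).

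The leading genes on the lower side were mostly dim. Of 12, 11 had a mean below the median gene, among them Rln3, a relaxin-family peptide, which ran from 2.33 to 2.91 in combination tumours and from 2.87 to 3.55 in hydroxychloroquine tumours (-0.58 ± 0.13, adjusted p = 0.769). Mzf1, a zinc finger transcription factor (-0.57 ± 0.14), Gprin1 (-0.65 ± 0.17), the potassium channel Kcnh6 (-0.45 ± 0.12), the protocadherin Pcdhb10 (-0.60 ± 0.17) and Hsf3, a heat shock factor (-0.86 ± 0.24), also had combination medians under 3.30. Atp6ap1l, a relative of a V-ATPase accessory subunit, was the only one of the 12 without overlap, at 3.88 to 4.15 in combination tumours and 4.23 to 4.85 in hydroxychloroquine tumours (-0.53 ± 0.14). Evc, of the primary cilium (-0.68 ± 0.17), Zfr2 (-0.75 ± 0.19), Atf7ip2 (-0.66 ± 0.17) and the zinc finger factor St18 (-0.73 ± 0.20) completed the set with Angpt1.

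Angpt1, the angiopoietin that activates the endothelial receptor Tek, was the one leading gene on the lower side with a mean above the median gene. It stood at 7.64, 8.14 and 8.51 in combination tumours, against 8.51, 8.89 and 9.46 in hydroxychloroquine tumours. Of 6 combination tumours, 5 lay below every hydroxychloroquine tumour, and the difference was -0.90 ± 0.24 (95% confidence interval -1.39 to -0.41, adjusted p = 0.769). Control tumours stood at 7.38 to 8.34 with a median of 7.92, so that the hydroxychloroquine tumours were the high group of the 4 and the combination lay near control. The endothelial markers lay lower as well, as given below with the other vessel genes, and the part of that in the Angpt1 difference was not tested.

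**Figure D1:**
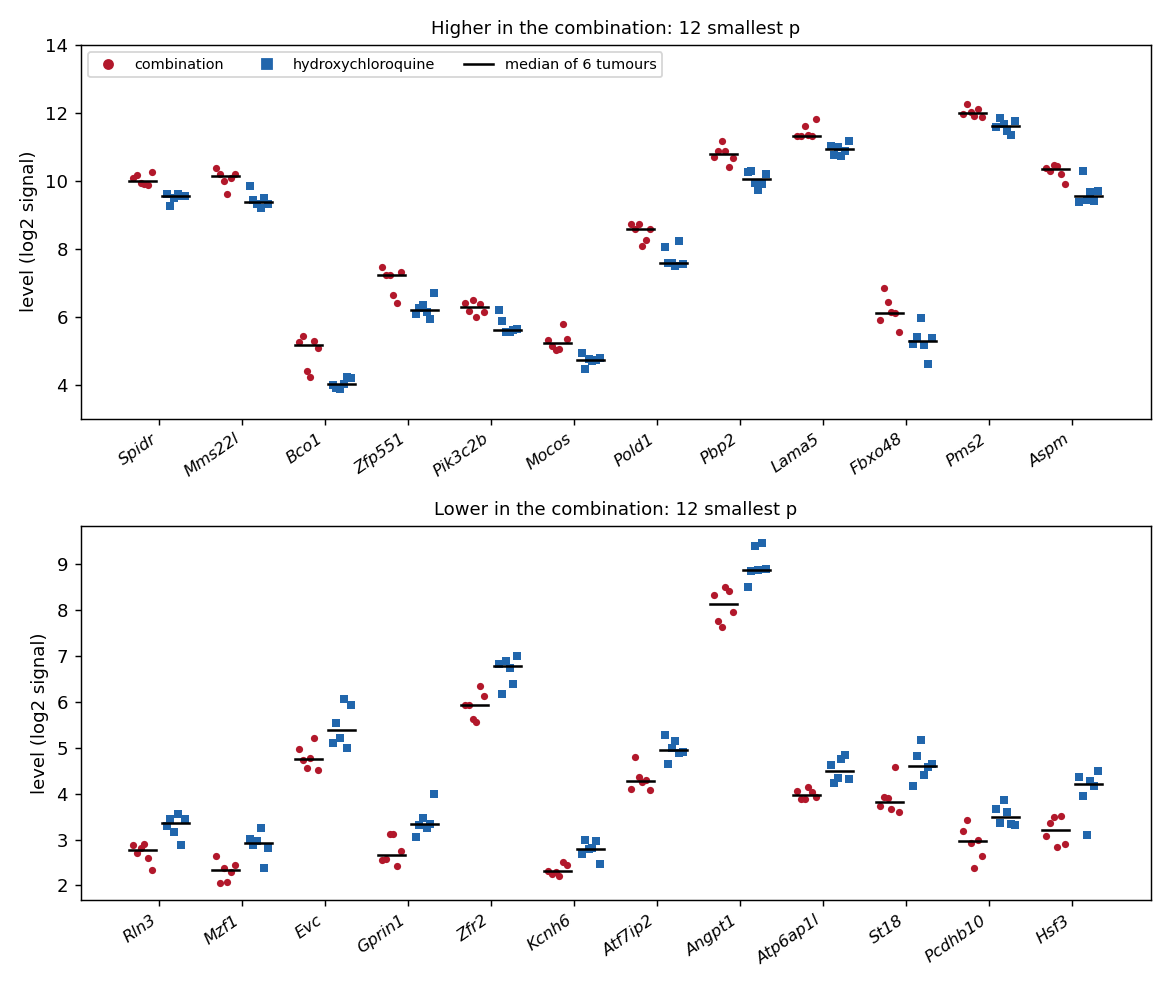
Levels (log2 signal, y axis) of the 12 leading genes per direction, by smallest p, with 1 point per tumour; combination tumours are red circles on the left of each gene, hydroxychloroquine tumours blue squares on the right, and bars are medians of 6. Spidr, Bco1, Mocos, Pbp2, Lama5 and Pms2 on the higher side and Atp6ap1l on the lower side show no overlap, and 11 of the 12 genes on the lower side lie under the median gene level of 7.21.

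Among genes without overlap between the groups, the largest differences on the lower side were at Ank2, a membrane-anchoring ankyrin, which ran from 2.96 to 3.63 in combination tumours and from 3.83 to 5.49 in hydroxychloroquine tumours (-1.04 ± 0.30). Tfec, a transcription factor of the TFEB family that is found in macrophages, ran from 6.22 to 7.0 in combination tumours and from 7.05 to 8.71 in hydroxychloroquine tumours (-0.95 ± 0.28). Hey1, a Notch target gene, ran from 6.70 to 7.34 in combination tumours and from 7.59 to 8.64 in hydroxychloroquine tumours (-0.90 ± 0.28). Elmo1, which acts in engulfment of dying cells (-0.88 ± 0.30), and Igsf6, a surface protein of myeloid cells (-0.85 ± 0.32), followed. Trp53i11, a p53-inducible gene, lay lower by the same criterion (-0.92 ± 0.39), and so did Snai1, a transcription factor of epithelial-mesenchymal transition (-0.82 ± 0.27). Snai1 ran from 4.19 to 4.61 in combination tumours and from 4.81 to 5.50 in hydroxychloroquine tumours.

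On the higher side the largest differences without overlap, besides Bco1 and Pbp2, were at Aldh3a1, an aldehyde dehydrogenase (0.77 ± 0.34), and Ankle1, a DNA endonuclease (0.69 ± 0.21). Ankle1 stood at 8.0, 8.08 and 8.37 in combination tumours, against 6.76, 7.63 and 7.84 in hydroxychloroquine tumours. The adaptor Stac differed by 0.62 ± 0.20 and the beta-defensin Defb2 by 0.56 ± 0.20. Aldh3a1 stood at 6.24 in combination tumour 2, between 4.91 and 5.25 in the other combination tumours and between 3.79 and 4.85 in the hydroxychloroquine tumours. Without combination tumour 2 its difference was 0.59.

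Genes of DNA replication lay higher in the combination as a group. Of 28 measured genes of the replication machinery and E2F targets, 28 had a higher mean in combination tumours. Their median difference was 0.24 log2, beside 0.0083 over all genes and 0.048 over genes above the median level, of which 62.8% lay higher. At an unadjusted p under 0.05, 7 of the 28 lay higher and 0 lower, where 2.80% of all genes lay higher, and 0 passed the adjusted test. Besides Pold1, the smallest p belonged to Pola1, the catalytic subunit of DNA polymerase alpha, which stood at 10.70, 11.27 and 11.47 in combination tumours, against 10.41, 10.65 and 11.03 in hydroxychloroquine tumours. Combination tumour 4 was the one within the hydroxychloroquine range, and the difference was 0.53 ± 0.15 (adjusted p = 0.769). Mcm4, of the replicative helicase, stood at 11.45, 11.80 and 12.17 in combination tumours, against 11.06, 11.32 and 11.85 in hydroxychloroquine tumours (0.47 ± 0.15, adjusted p = 0.827). The list score showed overlapping groups, from -0.25 to 0.47 with a median of 0.24 in combination tumours and from -0.48 to 0.21 with a median of 0.044 in hydroxychloroquine tumours.

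E2F factors are known to switch on replication genes in late G1, so the start regions of these genes were read for the E2F motif TTTNGCGC. In RefSeq windows of the 250 bases before each start (build GRCm38.p6), searched on both strands, 5 of 27 windows, which cover 23 of the 28 replication genes, held it (18.5%), against 372 of 32851 windows of all genes (1.13%). The list was made of E2F targets as well as replication genes, so a share above that of all genes was built in. That share says nothing about E2F in these tumours. The genes with the motif were Pola1, Mcm6, Rfc3, Mcm5 and Uhrf1, and a match is a description of the letters only. The 2 with the smallest p are shown, 5′ to 3′ along the gene and with the motif in capitals, as examples from the polymerases and the helicase of this list. Pola1 lies on the minus strand at chrX:93632156-93632405 with 1 motif, on the opposite strand, that begins 138 bases before the start. Mcm6 lies on the minus strand at chr1:128359706-128359955 with 3 motifs, of which the first 2, at 110 and 106 bases before the start, overlap each other on opposite strands and the other begins at 47 bases.
Pola1: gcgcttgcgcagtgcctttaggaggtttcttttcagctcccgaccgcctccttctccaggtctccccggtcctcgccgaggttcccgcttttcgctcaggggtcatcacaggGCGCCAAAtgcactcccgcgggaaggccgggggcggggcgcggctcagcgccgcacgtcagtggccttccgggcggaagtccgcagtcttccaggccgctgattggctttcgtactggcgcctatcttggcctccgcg
Mcm6: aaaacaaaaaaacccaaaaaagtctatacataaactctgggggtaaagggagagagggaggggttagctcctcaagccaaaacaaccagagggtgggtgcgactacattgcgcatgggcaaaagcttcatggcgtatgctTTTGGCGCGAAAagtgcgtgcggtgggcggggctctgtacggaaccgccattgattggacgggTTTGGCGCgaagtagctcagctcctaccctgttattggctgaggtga
Mcm6, another helicase subunit, was chosen for its window after its values were seen. It stood at 13.19, 13.22 and 13.45 in combination tumours, against 12.90, 13.02 and 13.29 in hydroxychloroquine tumours (0.22 ± 0.10, adjusted p = 0.902).

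Mitosis and repair genes leaned the same way, with medians of 0.17 and 0.25 beside 0.24 for replication genes. Of 26 genes of G2 and mitosis, 25 lay higher in the combination (median 0.17, and 0.11 without hydroxychloroquine tumour 3), 2 of them at an unadjusted p under 0.05, beside 2.80% of all genes. These were Prc1, of the cytokinetic midzone (10.10 to 10.69 in combination tumours and 9.57 to 10.38 in hydroxychloroquine tumours, 0.41 ± 0.17), and the mitotic kinase gene Cdk1 (0.34 ± 0.16). Mki67, the proliferation marker, stood at 14.97, 15.26 and 15.46 in combination tumours, against 14.65, 14.96 and 15.39 in hydroxychloroquine tumours. Those groups overlapped widely, and the difference was 0.22 ± 0.16 (95% confidence interval -0.10 to 0.54). Of 14 homologous recombination and Fanconi genes, 12 lay higher (median 0.25, and 0.16 without combination tumour 2), with Bard1, the partner of Brca1, at 0.41 ± 0.13 and the helicase-like Rad54l at 0.45 ± 0.22. Of 20 genes of MYC and ribosome biogenesis, 12 lay higher (median 0.053, and -0.060 with the array SD as a covariate), with Utp20, of small-subunit processing, at 0.48 ± 0.14, and Polr1b, of RNA polymerase I, at 0.30 ± 0.14. As a whole this MYC list lay close to all genes above the median level, of which 62.8% lay higher (median 0.048).

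Cholesterol genes lay higher in 19 of 19, with a median difference of 0.32. At an unadjusted p under 0.05, 1 of the 19 lay higher, beside 2.80% of all genes. That gene was Insig1, the sterol-responsive brake on the pathway, at 11.75, 12.29 and 12.82 in combination tumours, against 10.80, 11.55 and 13.05 in hydroxychloroquine tumours (0.69 ± 0.33, adjusted p = 0.902). The highest and the lowest values were both from hydroxychloroquine tumours. The same spread held for Idi1, which makes isoprenoid precursors, at 12.19 to 12.65 in combination tumours and 11 to 12.86 in hydroxychloroquine tumours (0.58 ± 0.31), and for the sterol carrier Stard4 (0.41 ± 0.21). The list score ran from -0.28 to 0.38 in combination tumours and from -0.82 to 0.66 in hydroxychloroquine tumours. With the SD over genes of each array as a covariate, the median of this list was -0.082, so its direction depended on that choice. Without hydroxychloroquine tumour 6 the median was 0.16.

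Sterol genes are known targets of SREBP factors, which bind the sterol regulatory element. The element in the form TCACCCCAC, searched on both strands, stood in 1 of 18 windows, which cover 15 of the 19 cholesterol genes (5.56%), against 163 of 32851 windows of all genes (0.496%). The first share rests on 1 window, in a list of genes known as such targets, so the shares cannot be compared. The one gene was Hmgcs1, of the first steps of the pathway, chosen for its window after its values were seen. It lies on the plus strand at chr13:119690101-119690350, and the element, in capitals, begins 137 bases before the start on the same strand.
Hmgcs1: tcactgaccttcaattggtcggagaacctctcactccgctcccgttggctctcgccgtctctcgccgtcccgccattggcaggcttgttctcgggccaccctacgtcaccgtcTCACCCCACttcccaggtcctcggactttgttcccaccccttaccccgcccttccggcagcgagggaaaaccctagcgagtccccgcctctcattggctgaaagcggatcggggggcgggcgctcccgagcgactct
Hmgcs1 stood at 14.40, 14.92 and 15.09 in combination tumours, against 13.68, 14.53 and 15.30 in hydroxychloroquine tumours, with every combination tumour inside the hydroxychloroquine range (0.33 ± 0.24, adjusted p = 0.902).

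**Figure D2:**
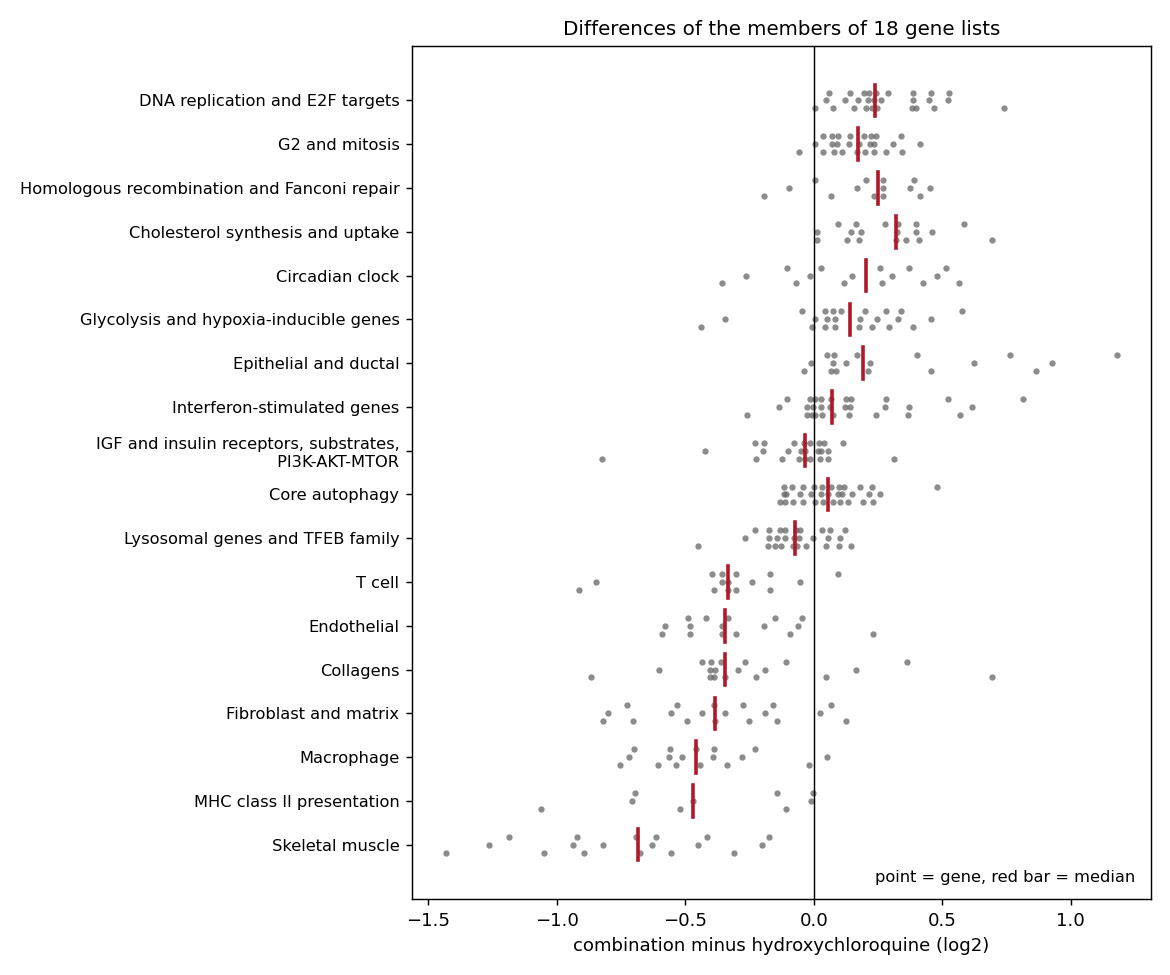
Difference of each measured member of 18 gene lists (x axis, combination minus hydroxychloroquine, log2), with 1 point per gene and a red bar at the median of the list. The replication and cholesterol genes lie to the right of 0 in 28 of 28 and 19 of 19, and the muscle genes to the left in 18 of 18.

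The targets of BMS754807 and their substrates overlapped between the groups in RNA level. Igf1r stood at 11.40, 11.66 and 12.08 in combination tumours, against 11.01, 11.56 and 12 in hydroxychloroquine tumours (0.11 ± 0.16, 95% confidence interval -0.23 to 0.45). Insr stood at 13.28, 13.42 and 13.67 in combination tumours, against 12.93, 13.50 and 13.73 in hydroxychloroquine tumours (0.023 ± 0.12, interval -0.23 to 0.28). For both receptors the groups overlapped over most of their range, and these intervals bound a change of RNA in either direction. The substrate Irs1 differed by 0.042 ± 0.12 (interval -0.22 to 0.30) and Irs2, which insulin is known to repress, by -0.20 ± 0.28 (interval -0.78 to 0.38).

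The ligand Igf1 lay lower in the combination and varied widely. It stood at 10.91, 11.86 and 12.49 in combination tumours, against 11.81, 12.37 and 14.34 in hydroxychloroquine tumours (-0.91 ± 0.47, adjusted p = 0.902). The difference was -0.57 without hydroxychloroquine tumour 4 and -0.12 with the array SD as a covariate. The groups overlapped, and 3 combination tumours lay below every hydroxychloroquine tumour. Igf1 is known to be made by stromal cells and macrophages, whose markers also lay lower, and their part in it was not tested. Igf2 differed by 0.028 ± 0.32, and the binding protein gene Igfbp2 by -0.91 ± 0.45. Of 25 receptors, substrates and PI3K-AKT-MTOR genes, 9 lay higher and 16 lower (median -0.035), and 0 reached an unadjusted p under 0.05. Grb10, an adaptor that restrains both receptors, was the largest of them at -0.82 ± 0.48. Of 24 FOXO factors and insulin-repressed genes, 12 lay higher and 12 lower (median -0.0067). Of 13 ERK feedback genes, 11 lay higher (median 0.10, and 0.017 without combination tumour 2), again with 0 at an unadjusted p under 0.05.

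Other growth factor systems showed single genes. Tyro3, a receptor tyrosine kinase, ran from 5.99 to 7.0 in combination tumours and from 5.52 to 6.68 in hydroxychloroquine tumours (0.67 ± 0.25). Its ligand Gas6 ran from 8.55 to 11.11 in combination tumours and from 10.41 to 11.84 in hydroxychloroquine tumours (-0.96 ± 0.45), so receptor and ligand differed in opposite directions. With the array SD as a covariate the differences were smaller, at 0.31 for Tyro3 and -0.28 for Gas6. Without combination tumour 2 the Gas6 difference was -0.67. Tgfa, a ligand of the EGF receptor, ran from 5.64 to 7.20 in combination tumours and from 5.31 to 6.19 in hydroxychloroquine tumours (0.67 ± 0.26). Met, the hepatocyte growth factor receptor, differed by 0.29 ± 0.17, and Mst1, the ligand of its relative Ron, by -0.43 ± 0.19.

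Autophagy genes showed small differences. Of 33 core autophagy genes, 22 lay higher in the combination and 11 lower (median 0.055, and 0.016 without hydroxychloroquine tumour 1). Of all genes above the median level, 62.8% lay higher (median 0.048). At an unadjusted p under 0.05, 1 of the 33 lay higher, beside 2.80% of all genes. That gene was Atg7, the activating enzyme of the conjugation systems, at 9.61, 9.90 and 10.36 in combination tumours, against 8.99, 9.52 and 9.73 in hydroxychloroquine tumours (0.48 ± 0.21, adjusted p = 0.902). The autophagosome gene Map1lc3b stood at 13.90, 13.98 and 14.16 in combination tumours, against 13.49, 14.01 and 14.27 in hydroxychloroquine tumours (0.055 ± 0.12, interval -0.19 to 0.30). The cargo receptor Sqstm1 stood at 13.03, 13.29 and 13.51 in combination tumours, against 12.64, 13.46 and 13.84 in hydroxychloroquine tumours (-0.082 ± 0.17, interval -0.43 to 0.27). In both, every combination tumour lay inside the hydroxychloroquine range.

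Lysosomal genes lay lower in 20 of 28 (median -0.073, and -0.042 without hydroxychloroquine tumour 4), with 0 at an unadjusted p under 0.05. The protease Lgmn differed by -0.45 ± 0.26, and Ctss, a lysosomal protease counted here with the class II genes, by -0.47 ± 0.27. Both are also known from macrophages and antigen-presenting cells. Of 19 V-ATPase subunits, which acidify the lysosome, 12 lay lower (median -0.080), and the median was -0.034 without combination tumour 1 and 0.043 without combination tumours 1 and 4 and hydroxychloroquine tumours 1, 4 and 5. Atp6v0d2, a subunit known from macrophages and osteoclasts, had the smallest p (5.72 to 7.28 in combination tumours and 6.54 to 8.02 in hydroxychloroquine tumours, -0.66 ± 0.31).

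**Figure D3:**
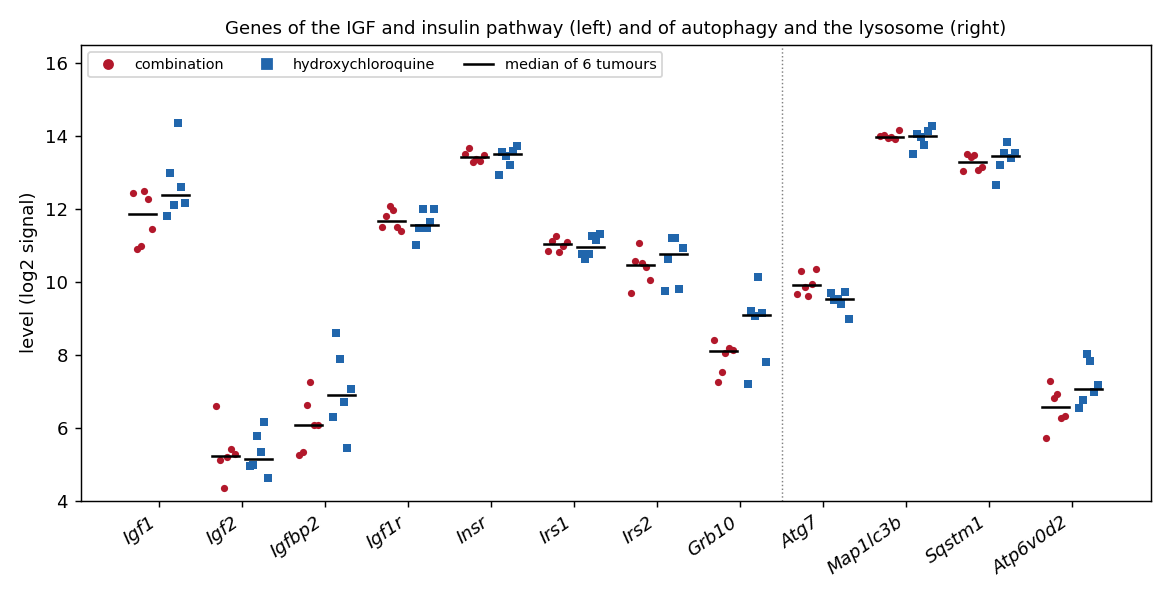
Levels (log2 signal, y axis) of genes of the IGF and insulin pathway (left of the dotted line) and of autophagy and the lysosome (right), with 1 point per tumour; combination tumours are red circles, hydroxychloroquine tumours blue squares, bars medians of 6. Igf1r, Insr, Irs1, Map1lc3b and Sqstm1 overlap over most of their range, and Igf1 runs up to 14.34 in 1 hydroxychloroquine tumour.

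Markers of macrophages lay lower in the combination in 16 of 17, with a median difference of -0.46, and 1 reached an unadjusted p under 0.05 where 2.59% of all genes lay lower by that rule. It was Cx3cr1, the fractalkine receptor, at 5.06, 5.85 and 6.49 in combination tumours, against 6.14, 6.42 and 6.79 in hydroxychloroquine tumours. Of 6 combination tumours, 5 lay below every hydroxychloroquine tumour (-0.70 ± 0.26, adjusted p = 0.902). Apoe, a lipid carrier made by macrophages, differed by -0.56 ± 0.29 and the macrophage surface protein Adgre1 by -0.75 ± 0.45, with 4 of 6 combination tumours of each below the hydroxychloroquine range. The macrophage score ran from -0.73 to 0.32 with a median of -0.52 in combination tumours and from -0.63 to 0.94 with a median of 0.041 in hydroxychloroquine tumours.

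Genes of MHC class II presentation lay lower in 9 of 9 (median -0.47), led by H2-Aa at 8.86, 10.71 and 11.84 in combination tumours, against 10.75, 11.61 and 12.67 in hydroxychloroquine tumours (-1.06 ± 0.49), and by H2-Ab1 (-0.69 ± 0.46). The median was -0.030 without hydroxychloroquine tumour 1, which had the highest class II score at 1.73. Dendritic cell markers lay lower in 11 of 13 (median -0.32, and -0.17 without hydroxychloroquine tumour 1), with the transcription factor Zbtb46 at -0.48 ± 0.22 and Siglech, of plasmacytoid dendritic cells, at -0.55 ± 0.27. T cell markers lay lower in 14 of 15 (median -0.33), where Cd3e ran from 4.39 to 6.45 in combination tumours and from 4.82 to 9.11 in hydroxychloroquine tumours (-0.92 ± 0.51). B and plasma cell markers also lay lower in 14 of 15 (median -0.33). Without hydroxychloroquine tumour 1 the T cell median was -0.0040 and the B and plasma cell median 0.11. Of 14 NK and cytotoxic genes, 11 lay lower (median -0.25), with Nkg7 at -0.61 ± 0.34. In the T cell, the B and plasma cell and the NK lists, 0 genes reached an unadjusted p under 0.05.

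Stroma and vessels lay lower as well. Of 19 fibroblast and matrix markers, 16 lay lower (median -0.38), with 0 at an unadjusted p under 0.05. Among them were the proteoglycan genes Dcn at -0.70 ± 0.44 and Lum at -0.80 ± 0.48 and the gelatinase Mmp2 at -0.82 ± 0.50. Each overlapped widely: Dcn ran from 12.54 to 15.08 in combination tumours and from 13.38 to 16.11 in hydroxychloroquine tumours. Of 19 collagens, 15 lay lower (median -0.35). The 2 collagens at an unadjusted p under 0.05 went opposite ways, with Col16a1 at -0.87 ± 0.35 and Col17a1, of epithelial hemidesmosomes, at 0.69 ± 0.24. By that rule 2.80% of all genes lay higher and 2.59% lower. Without combination tumour 4, at 5.80, the Col17a1 difference was 0.37. Of 16 endothelial markers, 15 lay lower (median -0.34), such as Kdr, the main VEGF receptor (-0.59 ± 0.40), and the sialomucin Emcn (-0.58 ± 0.43), with 0 at an unadjusted p under 0.05.

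The stromal medians leaned on hydroxychloroquine tumour 4. Without it the fibroblast median was -0.16, the collagen median -0.15 and the endothelial median -0.13, against -0.31 for macrophages. With the array SD as a covariate, the medians were 0.15 for fibroblast, 0.21 for collagen, 0.37 for endothelial and 0.037 for macrophage genes, while the replication median was 0.23. That covariate runs higher in the combination arrays, so it cannot be told apart from the treatment in full. All 18 skeletal muscle genes lay lower (median -0.68), with 0 at an unadjusted p under 0.05, and the median was 0.37 without hydroxychloroquine tumour 5.

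**Figure D4:**
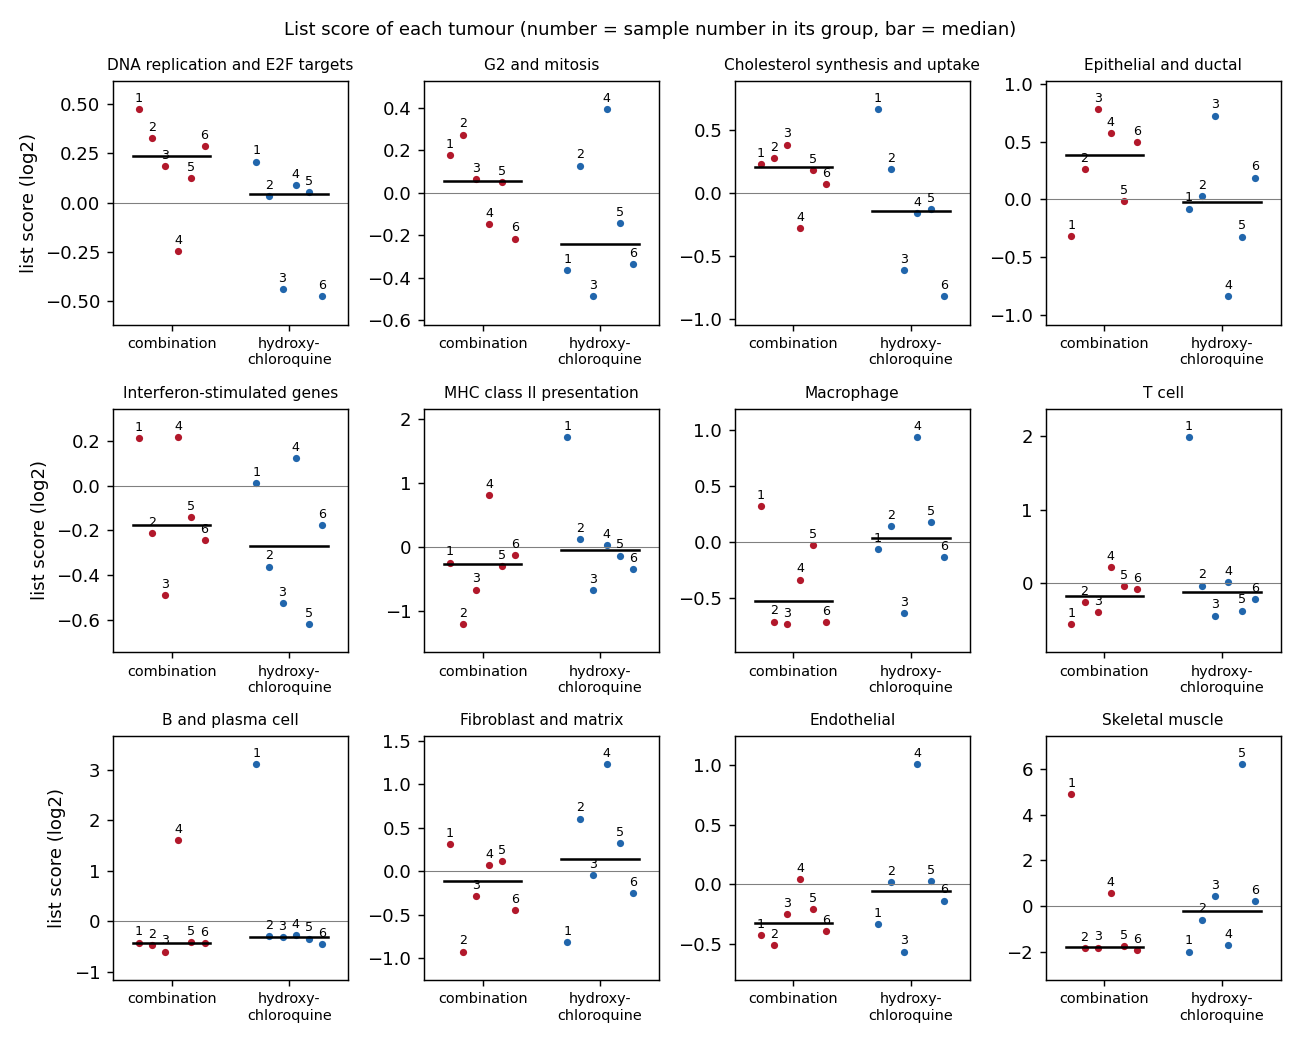
List score of each tumour (y axis, log2; mean over genes of the tumour's distance from the mean of all 24 tumours) for 12 lists, combination on the left and hydroxychloroquine on the right, with the sample number above each point and bars at the medians. Hydroxychloroquine tumour 1 stands out for B, T and class II genes, hydroxychloroquine tumour 4 for stroma and vessels, and combination tumour 1 (4.90) and hydroxychloroquine tumour 5 (6.20) for skeletal muscle.

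Epithelial and ductal markers lay higher in 16 of 18 (median 0.19), with 0 at an unadjusted p under 0.05, and the median was -0.060 with the array SD as a covariate. Krt7 ran from 16.91 to 17.18 in combination tumours and from 16.51 to 17.11 in hydroxychloroquine tumours (0.21 ± 0.12). The tight junction gene Cldn3 differed by 0.93 ± 0.50. Ehf, an epithelial ETS factor of the ductal and foregut list, ran from 13.75 to 14.44 in combination tumours and from 13.23 to 14.03 in hydroxychloroquine tumours, with 5 of 6 combination tumours above that range (0.46 ± 0.20). With the epithelial score as a covariate the replication median was 0.28 and the macrophage median -0.19. The part of tissue makeup in the differences of these and other lists was not tested.

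Inflammatory and interferon genes were mixed. Of 23 NF-kB and cytokine genes, 14 lay higher (median 0.12, and 0.051 without hydroxychloroquine tumour 5), beside 62.8% of all genes above the median level. The cytokine Il1a stood at 6.25, 7.19 and 8.22 in combination tumours, against 5.26, 6.03 and 6.73 in hydroxychloroquine tumours, with 4 of 6 combination tumours above that range (1.17 ± 0.43, adjusted p = 0.902). Tnfaip3, the feedback inhibitor of NF-kB, differed by 0.60 ± 0.25. Of 30 interferon-stimulated genes, 22 lay higher (median 0.072), and the median was -0.049 without combination tumour 1 and hydroxychloroquine tumour 5. Oasl1 stood at 5.37, 5.80 and 6.60 in combination tumours, against 4.59, 4.96 and 5.89 in hydroxychloroquine tumours (0.81 ± 0.27, adjusted p = 0.882). Control tumours lay at 5.87 to 6.80, above the medians of both groups. Irf7, a driver of the interferon response, showed the same order, with medians of 6.37 in combination tumours, 6.01 in hydroxychloroquine tumours and 7.21 in control tumours, and Ifit2 differed by 0.52 ± 0.26 between the first 2 groups.

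Clock and hypoxia genes gave further differences. Of 16 circadian clock genes, 11 lay higher (median 0.20, and 0.047 without combination tumour 2), and 3 of 16 lay higher at an unadjusted p under 0.05, beside 2.80% of all genes, namely the repressors Per3 (0.57 ± 0.22), Cry2 (0.42 ± 0.19) and Nr1d2 (0.37 ± 0.18). Per3 ran from 10.49 to 11.72 in combination tumours and from 9.99 to 11.08 in hydroxychloroquine tumours. Clock genes change over the day, the labels give no hour of collection, and its part was not tested. Of 24 glycolysis and hypoxia-inducible genes, 20 lay higher (median 0.14, and 0.045 without combination tumour 2), with the carbonic anhydrase Car9 at 12.78, 13.47 and 13.83 in combination tumours, against 12.25, 12.74 and 13.43 in hydroxychloroquine tumours (0.58 ± 0.26). Pgam1, of glycolysis, differed by 0.20 ± 0.093.

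Whether BMS754807 did the same without hydroxychloroquine can be read from BMS754807 against control tumours, which share no sample with the comparison above. The test of the difference between the 2 effects (the interaction) found 0 of 19505 genes at an adjusted p under 0.05 (0%), with a smallest adjusted p of 0.817. At an unadjusted p under 0.05 it held 985 of the 19505 genes, and a share of 0.05 is expected at that cut without any difference. Over the genes, which are no independent replicates, the 2 sets of differences had a correlation of -0.021, and 50.3% of genes had the same sign. Among the 1052 genes at an unadjusted p under 0.05 in the combination against hydroxychloroquine, 561 had the same sign (53.3%). Among genes without overlap it was 17 of 30 higher and 13 of 22 lower.

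Lists differed in this respect. Replication genes had a median of 0.24 with hydroxychloroquine and 0.19 without it, mitosis genes 0.17 and 0.33, repair genes 0.25 and 0.33, and cholesterol genes 0.32 and 0.27. Of 28 replication genes 24 lay higher in BMS754807 than in control tumours, as did 26 of 26 mitosis genes and 19 of 19 cholesterol genes. Pola1 differed by 0.44 ± 0.15 there and Prc1 by 0.52 ± 0.17. Macrophage and class II genes lay lower in both settings, with medians of -0.46 and -0.16 and of -0.47 and -0.31. Of 17 macrophage genes 12 lay lower in BMS754807 than in control tumours, as did 7 of 9 class II genes. Without hydroxychloroquine tumour 1 the class II median with hydroxychloroquine was -0.030. With the array SD as a covariate the medians with hydroxychloroquine were 0.037 for macrophage, -0.082 for cholesterol and 0.31 for mitosis genes. Fibroblast genes (-0.38 and 0.20), endothelial genes (-0.34 and 0.12) and muscle genes (-0.68 and 1.02) had opposite signs. With the array SD as a covariate the medians with hydroxychloroquine were 0.15, 0.37 and 0.52 for fibroblast, endothelial and muscle genes, and the muscle median was 0.37 without hydroxychloroquine tumour 5. No list was tested for a difference between the settings, and the medians without hydroxychloroquine were not recomputed with that covariate.

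Single leading genes divided as well. Spidr differed by -0.054 ± 0.11 between BMS754807 and control tumours and Mms22l by -0.063 ± 0.14, although they had the smallest p on the higher side in the presence of hydroxychloroquine. Fbxo48 differed by 0.76 ± 0.24 without hydroxychloroquine and 0.87 ± 0.24 with it, and Bard1 by 0.42 ± 0.13 and 0.41 ± 0.13. Of the 12 leading genes on each side, 6 had the same sign in both settings. As these genes were chosen on the values with hydroxychloroquine, the sizes there are a description.

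**Figure D5:**
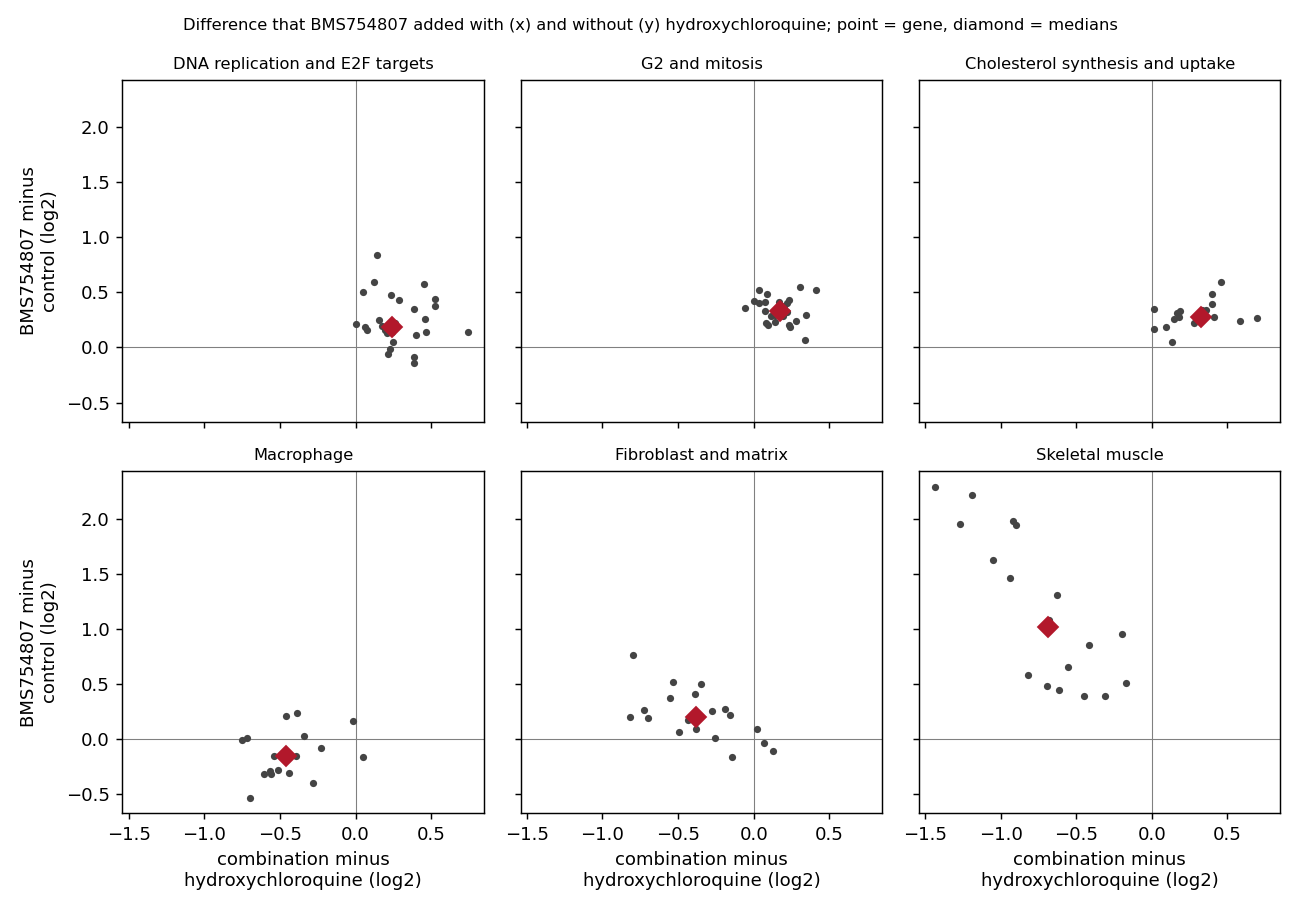
Members of 6 lists, with the difference between combination and hydroxychloroquine tumours on the x axis and the difference between BMS754807 and control tumours on the y axis (both log2); points are genes and diamonds the medians of the list. The replication, mitosis and cholesterol medians lie in the upper right, the macrophage median in the lower left, and the fibroblast and muscle medians in the upper left, at -0.38 and -0.68 on the x axis. With the array SD as a covariate the x values were 0.15 for fibroblast, 0.52 for muscle, 0.037 for macrophage, -0.082 for cholesterol and 0.31 for mitosis genes. Without hydroxychloroquine tumour 5 the muscle value was 0.37.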

How the data were processed

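Total RNA of each tumour was hybridised to a Clariom S array. Per the submitters' processing notes, the values were made with Transcriptome Analysis Console 4.0; background correction and normalization were not given in the sources used here. The authors deposited 22206 probe sets for 24 arrays, taken as log2 signal, with the base inferred from values between 1.45 and 19. Arrays have no count depth, and 6 arrays per group limit the precision. The platform annotation gave 19572 probe sets a symbol, and the one with the highest mean per gene was kept (19505 genes, 67 probe sets dropped).

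All 24 arrays entered 1 linear model with 4 group means (limma 3.58.1, R 4.3.3, lmFit and eBayes, two-sided, Benjamini-Hochberg over 19505 genes, threshold 0.05), and tested on simulated data. The genes and 63 lists (43 of pathways, 20 of cell types, 45 genes in more than 1) were chosen with earlier results of these data known; lists were counted, not tested. The text names from the 12 smallest p per direction, the 6 largest differences without overlap per direction, up to 3 smallest p per list, and 9 fixed genes; Mcm6 and Hmgcs1 stand outside this rule. Deviations of same-numbered samples from their group means had correlations from -0.212 to 0.163. No known pairs were at hand for comparison, so this does not settle whether numbers pair samples, and samples were treated as unpaired. Alternatives were other scalings, priors, weights, covariates, filters and arrays left out.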

Additional observations from a re-analysis of the deposited data

Results flagged for a closer look

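Among 97 genes and 12 list scores, each group of 6 tumours was searched for a single tumour far from the other 5. Of 218 such groups 17 held one, and chance gives about 1 in 20. In combination tumours these were Aldh3a1 at 6.24 in tumour 2 (others 4.91 to 5.25), Col17a1 at 5.80 in tumour 4 (3.66 to 3.97), the proteoglycan gene Lum at 9.50 in tumour 2 (11.59 to 12.36), St18 at 4.57 in tumour 5 (3.59 to 3.93) and Zbtb46 at 3.66 in tumour 1 (2.80 to 3.10), all in log2. The skeletal muscle score was 4.90 in combination tumour 1 and the B and plasma cell score 1.61 in combination tumour 4.

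In hydroxychloroquine tumours, tumour 1 stood apart most often: Cd3e at 9.11 (others 4.82 to 5.85), Nr1d2 at 12.63 (13.15 to 13.45), Utp20 at 11.22 (10.35 to 10.43), the class II score at 1.73, the B and plasma cell score at 3.11 and the T cell score at 1.98. Tumour 2 stood apart for Aspm at 10.27 (9.38 to 9.70) and Tyro3 at 6.68 (5.52 to 5.80). The endothelial score was 1.01 in tumour 4 (others at most 0.023) and the skeletal muscle score 6.20 in tumour 5 (others at most 0.43).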

How the results depend on the processing

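Under 14 alternatives, 1 of them added after seeing the data, and 12 removals of 1 tumour, 0 genes passed the adjusted test in limma, with a smallest adjusted p of 0.085 (hydroxychloroquine tumour 1 and combination tumour 4 left out). The interaction also had 0 genes in each setting it could be fitted in; it was not run on 12 arrays, which hold 1 of its 2 effects. With the replicate block, 529 genes lay higher and 535 lower (1064 in all) at an unadjusted p under 0.05, against 1052 without it, and of the 6 numbers only replicate 3 correlated best with its own number; no call changed. Among the 9752 genes above the median level, 530 lay at an unadjusted p under 0.05, split 395 higher and 135 lower. The main setting had 546 higher and 506 lower out of 19505 genes, so only the splits can be compared, not the counts. With arrays centred on their medians, 680 of the 19505 genes lay higher and 374 lower by that rule. Fewer genes or tumours changed the number without overlap (52) by construction: 31 among genes above the median level, 150 without hydroxychloroquine tumour 5 and combination tumour 1, 306 without hydroxychloroquine tumour 1 and combination tumour 4, 1392 with all these and hydroxychloroquine tumour 4 left out, and 80 to 175 with 1 tumour left out. Of 97 genes 86 kept their direction throughout. With the array SD as covariate the differences were 0.19 for Emcn, 0.073 for Grb10 and Kdr, -0.039 for Met, 0.071 for Mmp2 and 0.16 for Sqstm1. Insr was -0.031 with array weights, -0.017 after quantile normalization, -0.058 without hydroxychloroquine tumour 1 and combination tumour 4, and -0.14 with 5 tumours left out. In the last 2 settings Igf2 was -0.016 and -0.081 (-0.056 without hydroxychloroquine tumour 5 and combination tumour 1), Igf1r -0.054 and -0.12, and Map1lc3b -0.028 and -0.086. With 1 tumour left out, Igf2 ran from -0.23 to 0.22, Insr from -0.072 to 0.088, Irs1 from -0.029 to 0.11, Igf1r from -0.0037 to 0.19, Map1lc3b from -0.035 to 0.12 and Sqstm1 from -0.23 to 0.015. The cause of these turns was not tested. The replication median ran from 0.16 to 0.33 with 1 tumour left out and was 0.54 with 5 left out.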

Other observations

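Further gene groups were compared between combination and hydroxychloroquine tumours, and 0 of their members passed the adjusted test. Of 16 fatty acid synthesis genes 10 lay higher (median 0.10, and -0.046 with the array SD as a covariate), and 12 of 19 chaperone and unfolded protein response genes did (median 0.078). Both shares were close to the 62.8% of all genes above the median level that lay higher. Of 15 genes of MHC class I presentation 10 lay higher (median 0.12, and -0.018 without combination tumour 4), the opposite direction to the class II genes, while in BMS754807 against control tumours 0 of the 15 lay higher (median -0.13). Of 11 heat shock genes 8 lay lower (median -0.15, and -0.022 without hydroxychloroquine tumour 5), and of 15 p53 targets 10 lay lower (median -0.040, and 0.013 without combination tumour 5). Genes of the respiratory chain lay lower in 16 of 25 (median -0.045), and that median was 0.013 without hydroxychloroquine tumour 5 and 0.12 without combination tumours 1 and 4 and hydroxychloroquine tumours 1, 4 and 5. Proteasome subunits (median -0.0042) and cytosolic ribosomal proteins (median 0.012) lay close to the median of all genes.

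Among markers of other tissues, adipocyte genes lay higher in 11 of 15 (median 0.18, and -0.079 without combination tumour 5) and, in BMS754807 against control tumours, in 14 of 15 (median 0.88). Enterocyte and hepatocyte genes lay lower in 11 of 13 (median -0.21). Acinar genes lay lower in 10 of 15 (median -0.072), islet genes in 6 of 12 (median -0.088, and 0.17 with the array SD as a covariate) and neutrophil genes in 7 of 14 (median 0.040, and -0.012 without hydroxychloroquine tumour 5). The acinar value among genes above the median level was 0.16. It equals the highest difference of any acinar gene, so it stands for that gene and not for the list. Mast cell, basophil and eosinophil genes lay higher in 8 of 12 (median 0.14, 0.018 without hydroxychloroquine tumour 4 and -0.018 with the array SD as a covariate). Matrix proteases and their inhibitors lay lower in 14 of 21 (median -0.19, and 0.082 with the array SD as a covariate).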
